A study of Mus musculus with 4 samples.

Results

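The Ikaros family of zinc finger transcription factors has 5 mouse genes: Ikzf1 (Ikaros, NCBI Gene 22778), Ikzf2 (Helios, 22779), Ikzf3 (Aiolos, 22780), Ikzf4 (Eos, 22781) and Ikzf5 (Pegasus, 67143). All 5 were taken by symbol and were found among the 17723 genes listed in any library. They were followed in natural killer (NK) cells, innate lymphocytes that kill leukaemia cells, sorted from mouse spleen by surface DNAM-1, an activating receptor encoded by Cd226. The mice were C57BL/6J, labelled 6 to 8 weeks old, and total RNA was sequenced from 4 groups: DNAM-1+ and DNAM-1- NK cells of normal spleen (day 0), and DNAM-1+ and DNAM-1- NK cells of spleen at day 17 after transplantation of GFP+ MLL-AF9 acute myeloid leukaemia (AML) cells without irradiation. Each group holds 1 library, so a difference between a pair of libraries cannot be set against replicates. The labels give neither the number of mice in a library nor the gates beside DNAM-1.

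Ikaros family proteins bind DNA through a first cluster of zinc fingers and pair with each other through a second cluster near the end of the protein. They repress or activate genes together with chromatin complexes, of which the NuRD complex is the best known. Ikaros and Aiolos are needed at many steps of lymphocyte development, and Aiolos is required in mice for the last steps of NK maturation. Helios is best known from regulatory T cells and has also been studied in NK and innate lymphoid cells, Eos is a partner of Foxp3 in regulatory T cells, and Pegasus is the most divergent member.

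The members are alike in sequence, which could matter for how reads are divided among them. A zinc finger motif (C-2 residues-C-12 residues-H-3 to 5 residues-H or C) was searched in the coding sequence of each member's longest protein-coding transcript in GENCODE M21 (GRCm38). It matched 6 times each in Ikzf1, Ikzf2, Ikzf3 and Ikzf4, as 4 fingers followed by 2, and 5 times in Ikzf5, as 3 followed by 2. The coding sequences hold 515 (Ikzf1), 526 (Ikzf2), 507 (Ikzf3), 586 (Ikzf4) and 419 (Ikzf5) codons. The 63 bases that encode the second finger are shown 5′ to 3′ because this finger belongs to the DNA-binding cluster and has the same length in the 4 members that share the 4-finger layout. Capitals mark bases that differ from Ikzf1:
Ikzf1: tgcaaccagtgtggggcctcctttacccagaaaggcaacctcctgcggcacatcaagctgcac
Ikzf2: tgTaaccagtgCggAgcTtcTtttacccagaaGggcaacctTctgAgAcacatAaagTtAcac
Ikzf3: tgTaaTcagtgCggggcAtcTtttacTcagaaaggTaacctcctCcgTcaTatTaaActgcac
Ikzf4: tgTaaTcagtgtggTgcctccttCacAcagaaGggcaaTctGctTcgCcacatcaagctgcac

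These windows lie in exon 5 of the longest protein-coding transcript of each gene, at chr11:11754024-11754086 on the plus strand (Ikzf1), and on the minus strand at chr1:69570581-69570643 (Ikzf2), chr11:98488940-98489002 (Ikzf3) and chr10:128640229-128640291 (Ikzf4). Ikzf2 and Ikzf3 each differed from Ikzf1 at 12 of 63 bases and Ikzf4 at 10. The differences were spread along the finger, so identical runs were short. The longest run shared by any pair of coding sequences was 26 bases, between Ikzf1 and Ikzf3 (gatccctttgagtgtaacatgtgtgg). Over whole transcripts the longest was 32 bases, between Ikzf2 and Ikzf4, and no window of 50 bases was shared by any pair of the 5 transcripts.

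**Figure D1:**
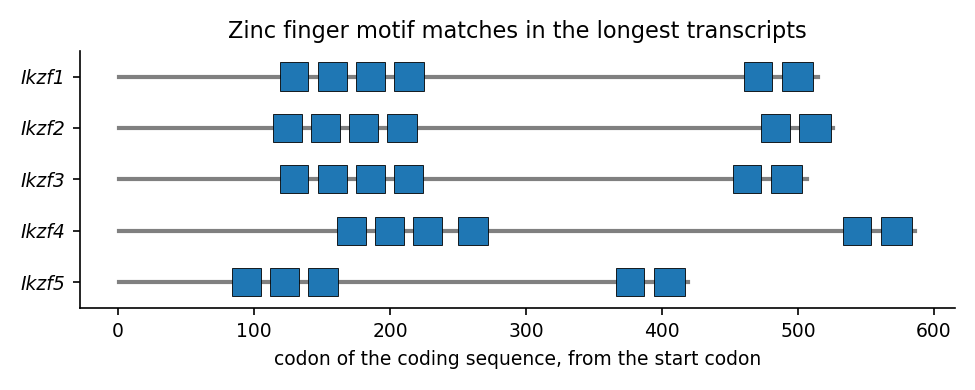
Zinc finger motif matches (boxes) along the coding sequence of the longest protein-coding transcript of each member, in codons from the start codon. Ikzf1 to Ikzf4 have 4 fingers in the first cluster and Ikzf5 has 3, and all 5 have 2 in the second.

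Ikzf3 and Ikzf1 were the abundant members in every library, Ikzf5 was intermediate, Ikzf2 was low, and Ikzf4 was at the edge of detection. Levels are the deposited FPKM (fragments mapped, scaled to transcript length and to the library's mapped fragments), which are per length, so that genes can be set side by side. Ikzf1 and Ikzf3 together made up 95.1% to 96.3% of the family's summed FPKM. In normal spleen that sum was 436 (DNAM-1+) and 432 (DNAM-1-), and with AML it was 435 and 431, so the highest and the lowest library differed by 1.11%.

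**Figure D2:**
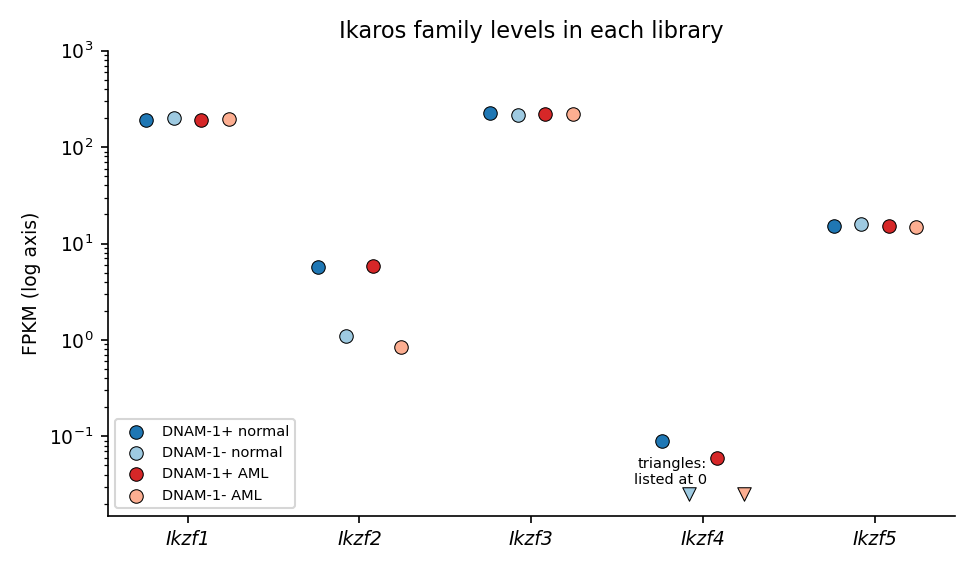
FPKM of the 5 members in each of the 4 libraries, on a log axis, with 1 point for each library. Triangles stand for libraries in which Ikzf4 is at 0, where a gene not listed was taken as 0. Ikzf2 lies at 5.7 and 5.82 FPKM in the DNAM-1+ libraries and at 1.1 and 0.84 in the DNAM-1- libraries, while Ikzf1, Ikzf3 and Ikzf5 lie level across all 4.

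Ikzf2 separated the subsets in both spleens. In normal spleen it was at 5.7 FPKM in the DNAM-1+ library versus 1.1 in the DNAM-1- library, and in AML spleen at 5.82 versus 0.84. Both DNAM-1+ libraries were thus above both DNAM-1- libraries, and the libraries of the same subset were close to each other. That order alone is not particular to Ikzf2. Ikzf3 showed it too and Ikzf1 the reverse, over ranges of only 4.91% and 5.79% of their lowest library. The share of all genes that separate by subset was not counted. Without a pseudocount DNAM-1+ cells had 5.18-fold the level of DNAM-1- cells in normal spleen and 6.93-fold in AML spleen. On the log2(FPKM + 1) scale, which understates the change of low genes, the ratios were 1.67 and 1.89, the 50th and the 37th highest of 11454 genes at a mean of 1 FPKM or more. On this scale 1.55% of those genes were past 2-fold upward in normal spleen and 1.2% in AML spleen. Ikzf2 was past 2-fold in both, as 1 of the 4 members at this level. With a pseudocount of 5 its ratios were 0.81 and 0.89, short of 2-fold.

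Depth was estimated at 8900000, 8700000, 8800000 and 8700000 fragments, first for the DNAM-1+ and the DNAM-1- library of normal spleen and then for those of AML spleen. If all Ikzf2 reads came from its longest transcript (9278 nt), its FPKM stand for about 471, 88.8, 475 and 67.8 reads in that order. If they came from its shortest coding transcript over 1000 nt (1146 nt), they stand for about 58.1, 11, 58.7 and 8.4. The exact binomial 95% interval of the fold was 4.12 to 6.56 in normal and 5.35 to 9.04 in AML spleen with the longer transcript, and 2.68 to 10.9 and 3.47 to 17.7 with the shorter. These intervals cover counting error and leave out any variation among mice.

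An additive limma fit of subset and spleen over the 4 libraries gave Ikzf2 a mean difference of 1.78 on the log2(FPKM + 1) scale (SE 0.14, adjusted p = 0.00215). Ikzf2 was higher in DNAM-1+ cells of both normal and AML spleen, which are 2 conditions and not replicates. Its difference was the 25th highest of 11454 genes. Of those genes 5.33% rose and 7.22% fell with DNAM-1 by limma (adjusted p below 0.05). Ikzf2 was singled out with this difference already known, so the call is not independent evidence. The fit has 1 residual degree of freedom and borrows its spread across genes. Without the expression floor, over 17723 genes, Ikzf2 was not called (limma adjusted p = 0.117) and neither was any other gene, with 1576 higher and 1849 lower at an unadjusted p below 0.05.

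More Ikzf2 than Cd226 RNA remained in DNAM-1- cells. Cd226, the gene of the receptor used for the sort, stood at 38.6 (normal) and 36.1 FPKM (AML) among DNAM-1+ cells and at 0.45 and 0.58 among DNAM-1- cells, so the latter held 1.17% and 1.61% of the DNAM-1+ level. For Ikzf2 they held 19.3% and 14.4%. With bulk libraries, fewer Ikzf2-expressing cells, less Ikzf2 RNA per cell and a different share of other cell types cannot be told apart. Markers of B cells, plasma cells and monocytes, given below, were higher in the DNAM-1- libraries. The part of those cells in the Ikzf2 level was not tested.

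**Figure D3:**
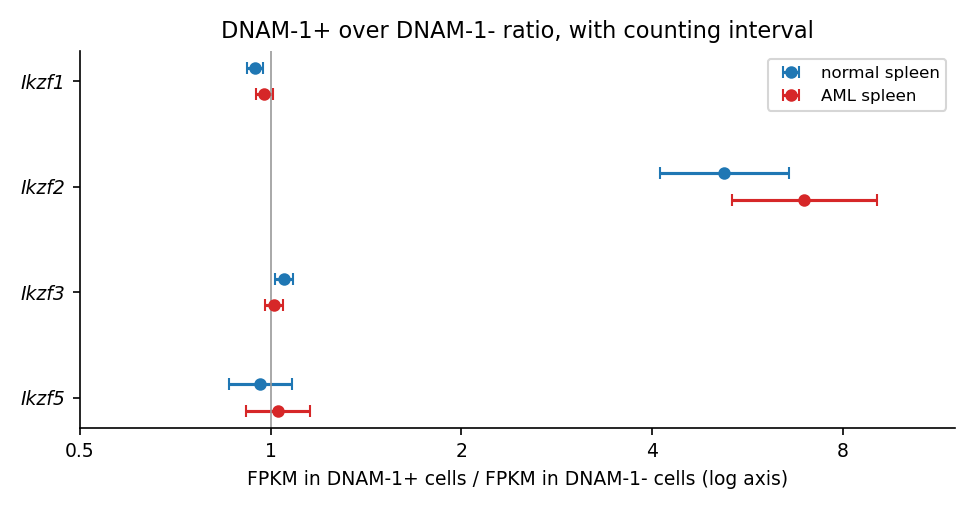
FPKM in DNAM-1+ cells over FPKM in DNAM-1- cells for the 4 members above the expression floor, in normal (blue) and AML (red) spleen, on a log axis. Bars are 95% counting intervals that assume the longest protein-coding transcript. Ikzf2 lies at 5.18 and 6.93, and the other members between 0.945 and 1.05.

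Ikzf1, the founding member, was at 190.5 (DNAM-1+) versus 202 FPKM (DNAM-1-) in normal spleen, and at 191 versus 195 with AML. Its highest library exceeded its lowest by 5.79%. DNAM-1+ cells had 0.945-fold the DNAM-1- level in normal spleen (counting interval 0.918 to 0.974, longest transcript) and 0.978-fold in AML spleen (0.949 to 1.01). limma gave a difference of -0.06 (95% interval -0.19 to 0.08, adjusted p = 0.562).

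Ikzf3 was the most abundant member in all 4 libraries, at 224 (DNAM-1+) versus 214 FPKM (DNAM-1-) in normal spleen, and at 223 versus 219.8 with AML. DNAM-1+ cells had 1.05-fold the DNAM-1- level in normal spleen (counting interval 1.01 to 1.08) and 1.01-fold in AML spleen (0.98 to 1.05). limma gave 0.04 (95% interval -0.09 to 0.18, adjusted p = 0.661). Neither Ikzf1 nor Ikzf3 was called, and for both the limma interval lay far inside a 2-fold change. With 1 library a group that interval borrows its spread across genes and cannot measure variation among mice. Ikzf3 exceeded Ikzf1 by 1.18-fold (DNAM-1+) and 1.06-fold (DNAM-1-) in normal spleen, and by 1.16-fold and 1.12-fold with AML.

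Ikzf5 was at 15.2 (DNAM-1+) versus 15.75 FPKM (DNAM-1-) in normal spleen, and at 15.3 versus 14.9 with AML. The groups overlapped, and limma gave -0.01 (95% interval -0.20 to 0.18, adjusted p = 0.964). The order of the members by level was the same in all 4 libraries, but the distance from Ikzf5 to Ikzf2 was not. Ikzf5 exceeded Ikzf2 by 2.66-fold and 2.63-fold in the DNAM-1+ libraries and by 14.3-fold and 17.8-fold in the DNAM-1- libraries.

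Among DNAM-1+ libraries Ikzf4 was at 0.09 FPKM (normal) and 0.06 (AML). It is at 0 in both DNAM-1- libraries, where a gene not listed was taken as 0. On its longest transcript (5150 nt) these levels stand for about 4.1 and 2.7 reads. A difference between the subsets was not detectable at this depth, and Ikzf4 was left out of the main limma fit by the expression floor. In the fit without a floor its difference was 0.10 (SE 0.04, adjusted p = 0.301).

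None of the 4 tested members was called for AML by limma, and their smallest unadjusted p, that of Ikzf2 in the same limma fit across all genes, was 0.588. In DNAM-1+ cells the AML over normal ratio without a pseudocount was 1.00 for Ikzf1, 1.02 for Ikzf2, 0.993 for Ikzf3 and 1.01 for Ikzf5. In DNAM-1- cells it was 0.97 for Ikzf1, 0.764 for Ikzf2, 1.03 for Ikzf3 and 0.947 for Ikzf5. The lower Ikzf2 level in DNAM-1- cells of AML spleen lay within counting error, with an interval of 0.549 to 1.06 on the longest transcript. limma called 0.227% of the 11454 genes for AML. Its differences were -0.02 for Ikzf1 (95% interval -0.16 to 0.12, adjusted p = 0.926), -0.08 for Ikzf2 (-0.45 to 0.28, 0.869), 0.01 for Ikzf3 (-0.12 to 0.15, 0.947) and -0.03 for Ikzf5 (-0.22 to 0.16, 0.915). The DNAM-1 log2 ratio of Ikzf2 in normal minus that in AML spleen was -0.22, a value that has no test in this design.

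The 5 protein-coding genes whose profile over the 4 libraries was most like that of Ikzf2 were sought among 10624, by Euclidean distance between log2(FPKM + 1) values centred on each gene's mean. They were Trat1, an adaptor associated with the T cell receptor (distance 0.09), Socs2, a brake on cytokine signalling (0.16), Cd3g, a chain of the CD3 complex (0.19), Thy1, a surface protein of T cells and some NK cells (0.21), and Cxcr6, a chemokine receptor of tissue-resident lymphocytes (0.22). Trat1 was at 5.93 (DNAM-1+) versus 1.03 FPKM (DNAM-1-) in normal spleen and at 6.17 versus 0.85 with AML, close to Ikzf2 in level as well. Cxcr6 was at 3.27 versus 0.3, and at 3.95 versus 0.35. For Ikzf3, whose profile is almost level, the 5 nearest were Dock11, Fbxl22, Unkl, Dpp8 and Cntd1, at distances of 0.01 each.

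**Figure D4:**
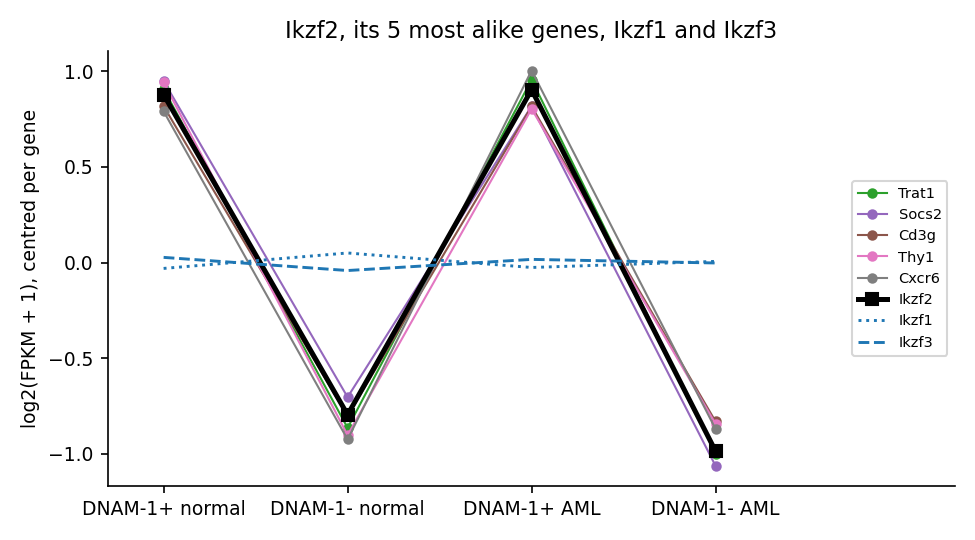
log2(FPKM + 1) centred on each gene's mean, in the 4 libraries, for Ikzf2 (black squares), its 5 most alike genes, and Ikzf1 and Ikzf3 (blue lines without markers). The 6 profiles rise in both DNAM-1+ libraries and fall in both DNAM-1- libraries, and Ikzf1 and Ikzf3 stay near 0.

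NK markers were abundant in every library, with summed levels of 7114 (DNAM-1+) versus 6157 FPKM (DNAM-1-) in normal spleen and 7522 versus 7336 with AML, and 3 of the 10 rose with DNAM-1. Over all genes tested 5.33% rose and 7.22% fell, and the counts of each marker list below stand beside those shares. Markers of other cell types moved with the subsets. The T cell markers summed to 79.9 (DNAM-1+) versus 35.3 FPKM (DNAM-1-) in normal spleen and to 74.3 versus 30.1 with AML, and none of the 10 was at 0 in any library. Of the 8 tested, 4 rose (Cd3d, Cd3e, Cd3g and Cd28) and Cd8b1 fell. The lineage genes Cd4 and Cd8a, and Themis, were low and were not called. Cd4 was at 1.29 versus 1.3 FPKM in normal spleen and 1.38 versus 0.75 with AML. Cd8a was at 3.7 versus 2.17, and 2.88 versus 2.92. Themis stood at 2.01 versus 1.21, and 1.12 versus 0.72. Cd5 (1.0 versus 0.27, and 0.53 versus 0.27) and Cd6 (0.48 versus 0.08, and 0.61 versus 0.11) were below the floor. For Themis, Cd5 and Cd6 each DNAM-1+ library exceeded the DNAM-1- library of its spleen. The part of T cells in the Ikzf2 difference was not tested. Foxp3 defines regulatory T cells, the cells for which Helios is best known. It was below the floor, at 0.85 versus 0.73 FPKM and 0.75 versus 1.05, with no subset above the other in both spleens. The part of regulatory T cells was not tested. B cell markers, all 10 of which fell in DNAM-1+ cells, summed to 224 versus 1081 and 248 versus 1041 FPKM. Monocyte markers, with 5 of 7 tested falling and Ccr2 rising, summed to 310 versus 713 and 367 versus 726. Most of the DNAM-1+ sums came from the 2 that did not fall. These were Ly6c2 (137 versus 159 FPKM, and 188 versus 192) and Ccr2 (122 versus 98.3, and 113 versus 86.6). The sums thus understate the fall of the others, and the median limma difference of the 7 was -2.78. Plasma cell markers (4 of 4 tested falling) summed to 19.7 versus 149 and 28.6 versus 252 FPKM, and macrophage markers (5 of 6) to 20.1 versus 66.2 and 23.4 versus 51.5. Neutrophil markers (4 of 7) summed to 82.9 versus 145 and 59.1 versus 114, and erythroid markers (2 of 2) to 7.29 versus 12.7 and 9.23 versus 15.5. Of the 4 dendritic cell markers tested, 0 were called, which in a list of 4 is near the shares over all genes. B cells are known to express Ikzf1 and Ikzf3, and the part of these cells in the levels of both genes was not tested.

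Differences in the corepressor partners of the family were small. Of the 13 NuRD genes, all of them tested, 2 rose and 0 fell in DNAM-1+ cells, where 5.33% of all genes tested rose and 7.22% fell, and the median difference was 0.18 versus 0.01 over all genes tested. The histone-binding subunit gene Rbbp4 was at 44.5 versus 35.5 FPKM in normal spleen and 44.4 versus 34.9 with AML (limma difference 0.33, SE 0.06, adjusted p = 0.0255). The remodeller gene Chd3 was at 76.8 versus 59 and 73.9 versus 61.8 (0.31, SE 0.06, adjusted p = 0.0319). Both differences were far smaller than that of Ikzf2, and the main remodeller gene of the complex, Chd4, was at 122 versus 103 and 111 versus 101 and was not called (limma adjusted p = 0.103).

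The other cofactors (Sin3a, Sin3b, Ctbp1, Ctbp2, Smarca4 and Rbbp8; median 0.06), the kinase CK2 and phosphatase PP1 subunits that set Ikaros phosphorylation (6 genes, median 0.08), and the cereblon ubiquitin ligase, through which lenalidomide degrades Ikaros and Aiolos in human cells (5 genes, median 0.06), held no called gene. Their smallest limma adjusted p was 0.0918, for Rbbp8. Over all genes tested 5.33% rose and 7.22% fell, with a median of 0.01. A count of 0 in lists this small is near those shares. Crbn, the substrate receptor of that ligase, was at 19.3 versus 17.6 FPKM in normal spleen and 17.6 versus 17.9 with AML.

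Among 10 NK maturation genes 3 rose and 2 fell in DNAM-1+ cells, beside 5.33% rising and 7.22% falling over all genes tested, with a median of -0.01 (0.01 over all genes). Kit, a growth factor receptor of early cells, was at 17.9 versus 7.86 FPKM in normal spleen and 25.3 versus 9.78 with AML (limma difference 1.19, SE 0.09, adjusted p = 0.00165). Cd27, a marker of less mature NK cells, was at 67.9 versus 38.6 and 63.4 versus 36.5, and Tbx21, the gene of T-bet, at 218 versus 169 and 194 versus 147. Cma1, a protease of mature NK cells, fell, at 119 versus 168 and 129.5 versus 198. These calls stand beside the markers of other cell types given above, whose part was not tested.

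ILC1 genes, which mark the innate lymphocytes nearest to NK cells, were mostly higher in DNAM-1+ cells, as Ikzf2 was. Of 9 listed, 8 were tested, 7 rose and 0 fell, beside 5.33% and 7.22% of all genes tested, with a median difference of 1.49 (0.01 over all genes). Zfp683 is listed in none of the 4 libraries and was taken as 0. Whether the annotation held it is not known, so this is no measured level. Cd69 was not called (18.2 versus 22.5 and 23.3 versus 27.2). Il7r, the interleukin-7 receptor gene, was at 38.5 versus 2.06 FPKM in normal spleen and 38.6 versus 2.1 with AML. Cd200r1, an inhibitory receptor gene, was at 5.31 versus 0.61 and 5.43 versus 0.35, and Rora, a transcription factor gene of innate lymphoid cells, at 4.29 versus 0.81 and 3.98 versus 0.8. Eomes, one of the NK markers, was at 221 versus 211 FPKM and 212 versus 231, and was not called. Whether the share of ILC1 differs between the subsets was not tested. The ILC1 list was chosen with the rise of Il7r and Cd200r1 known, and it moved beside the T cell markers, whose part was not tested.

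Of 7 regulatory T cell genes 4 were tested and 1 rose (5.33% of all genes tested did), Tnfrsf18, the gene of GITR, which NK cells also express, at 48.7 versus 34.1 FPKM in normal spleen and 53.1 versus 35.3 with AML (limma difference 0.54, SE 0.06, adjusted p = 0.00607). Foxp3, Ctla4 and Itgae were below the floor. Of the 8 T cell markers tested, 4 rose in the same libraries and 1 fell, and their part was not tested.

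**Figure D5:**
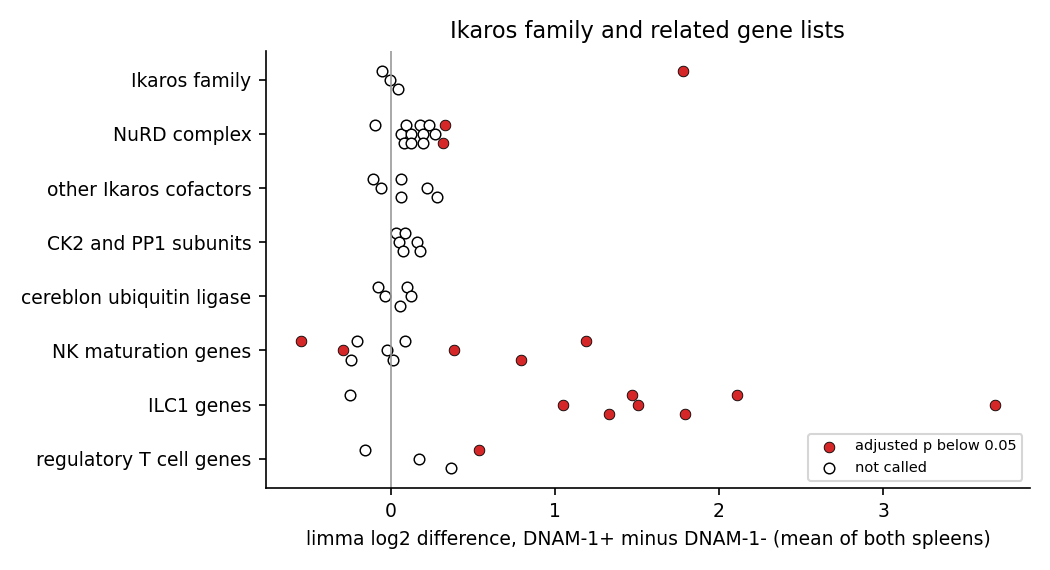
limma log2 difference of DNAM-1+ minus DNAM-1- cells over both spleens for each tested gene of the family and of 7 related lists, with filled points at an adjusted p below 0.05. Ikzf2 stands apart from its 3 tested relatives at 1.78, and the NuRD genes lie between -0.10 and 0.33.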

How the data were processed

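The authors deposited 1 file a library, with FPKM to 2 decimals under NCBI Gene numbers. Genes not listed in a library were taken as 0. Bowtie2 2.2.5 and RSEM appear in the submitters' processing notes; their roles, the genome build and the annotation are not given in the sources used here. Symbols came from the RefSeq table of GRCm38.p6, which matched 17668 of 17723 gene numbers.

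Depth was estimated by taking 1 read of a microRNA or small nucleolar RNA gene of 80 to 200 nt as the FPKM step. Depth and an offset to gene length (33 or 34 nt) were chosen together to bring the most values near whole multiples. At the chosen pair 85.5% to 95.3% of values of up to 6 reads lay within 0.1 step of a whole multiple. That share was maximised by the search, so it is no separate check on the depth. Libraries list 15460 to 16161 genes.

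Differences between subsets were tested with limma 3.58.1 (R 4.3.3) with a mean-variance trend on log2(FPKM + 1), two-sided, with Benjamini-Hochberg adjustment over the 11454 genes at a mean of 1 FPKM or more. Of the 5 members 4 passed this floor. Genes at an adjusted p below 0.05 are called rising or falling. Since the groups hold 1 library each, the residual is the interaction, so a call is no statement that both spleens differed equally. Counting intervals are exact binomial intervals on estimated reads (scipy 1.17.1).

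The members and lists were chosen with earlier results of these data known. Genes named are the members, at most 4 called genes a list by size of difference (other list and marker genes were named after their values were seen), and the 5 genes nearest in profile to Ikzf2 and to Ikzf3. A planned comparison of protein sequences was made on transcripts of GENCODE M21 instead. Alternatives were other pseudocounts, floors, scalings and gene sets, and a fit without the trend.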

Additional observations from a re-analysis of the deposited data

Results flagged for a closer look

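Ikzf5 stood slightly lower in DNAM-1+ than in DNAM-1- cells of the normal spleen (log2 ratio -0.05) and slightly higher in those of the AML spleen (0.04), a gap of -0.0858 between the spleens. Both ratios lay within counting error, and the gap was not tested.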

How the results depend on the processing

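Ikzf2 was higher in DNAM-1+ cells under every alternative run, and limma called it under each except the fit with no floor (1.78, adjusted p = 0.117). The limma adjusted p was otherwise 2.86e-05 (protein-coding genes alone) to 0.00857 (floor of 5 FPKM in any library). Ikzf2 passed that last floor only through the DNAM-1+ libraries (5.7 and 5.82 FPKM), so its call in that fit is no support. Its log2 ratio in normal and AML spleen was 2.27 and 2.65 with a pseudocount of 0.1, 0.81 and 0.89 with one of 5, and 2.30 in AML spleen after TPM scaling. Ikzf1 and Ikzf3 kept their direction and were not called in any fit. The Ikzf5 difference changed sign with median-ratio scaling (0.0011) and with the AML spleen alone (0.0358). Of all genes tested, 610 rose and 827 fell for the subset. With no floor 0 rose and 0 fell (1576 and 1849 at an unadjusted limma p below 0.05), with no trend 303 rose, and among protein-coding genes alone 965 rose. For AML 8 rose and 18 fell; the counts were 2 and 4 with a pseudocount of 0.1, 5 and 9 with either scaling, 0 and 0 with no floor (552 and 717 unadjusted), and 25 and 74 among protein-coding genes alone. With a pseudocount of 5, 8 fell, and with no trend, 10. The cause of these changes was not tested. The limma fit already holds the condition (normal or AML spleen) as a term. The labels do not say whether 2 subsets came from the same mice, and they number no replicates that could form a further block. Leaving out a library leaves no residual, so only the ratio of 1 spleen remains, as given in the report. Depth limits Ikzf4 most.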
